A study of Mus musculus with 9 samples.

Results

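The genes described here make creatine, carry it into cells and charge it with phosphate. They are Gatm and Gamt for synthesis, Slc6a8 for uptake, and the creatine kinase genes Ckm, Ckb, Ckmt1 and Ckmt2. They were chosen by name, as the rows of the deposited table whose symbol is one of these, and all 7 were found among its 53715 gene IDs. RNA had been sequenced from mouse primary myoblasts, muscle precursor cells, at passage 1. All cells were of strain C57BL/10ScSn-Dmdmdx/J, whose dystrophin gene is mutated, so the comparison has no wild-type arm. Of the 9 libraries, 3 came from cells at 0.2 mM glycine and 6 from cells at 0.8 mM, and the question is how the level of this amino acid bears on the transcriptome. The labels give neither the age or sex of the mice, nor how long glycine was given, nor whether libraries came from separate cultures or animals. The p-values therefore measure the spread between these libraries, which may be technical.

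Values are TPM, in which the reads of a gene are divided by its length and each library is scaled to a common sum, so levels of different genes can be set side by side. TPM keeps no read number, and the depth of each library is unknown. The titles number the libraries as Lib1 at 0.2 mM and Lib2 at 0.8 mM, so anything that went with that numbering cannot be told apart from glycine. Ribosomal RNA genes held 17.7 to 23.5% of TPM across the 9 libraries, with overlapping groups. Ribosomal protein genes held 21.3 to 22.5% at 0.2 mM and 18.9 to 19.9% at 0.8 mM, and 8979 to 9243 and 9321 to 9457 genes were at 1 TPM or more. Neither of these 2 measures overlapped between the groups, and their part in the results was not tested. Of 10049 genes tested, 26.6% changed. Rises made up 63.1% of these calls, and 52.6% with median-ratio scaling or 49.8% with quantile normalization.

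Creatine synthesis starts from glycine. Gatm encodes the mitochondrial enzyme that moves the amidino group of arginine onto glycine, giving guanidinoacetate and ornithine. Gamt encodes the enzyme that methylates guanidinoacetate to creatine, with S-adenosylmethionine as the methyl donor. In the body much creatine is made in kidney and liver, and muscle takes it from the blood through the sodium-coupled carrier encoded by Slc6a8. Creatine kinases pass phosphate between ATP and creatine, and phosphocreatine buffers ATP in contracting muscle. Ckm is the muscle cytosolic form, Ckb the brain cytosolic form also present in muscle precursors, Ckmt1 the widespread mitochondrial form and Ckmt2 the mitochondrial form of striated muscle.

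At 0.8 mM glycine both synthesis genes and both cytosolic kinase genes were higher, the transporter was lower, and the mitochondrial kinase genes were at or close to 0 TPM. Of the 7 genes, 4 rose (Gatm, Gamt, Ckm and Ckb), as did 16.7% of all genes tested, and 1 fell (Slc6a8), as did 9.81%. The remaining 2, Ckmt1 and Ckmt2, were too low to test. The test was limma on log2(TPM + 1) with a Benjamini-Hochberg adjusted p under 0.05, and the filter asked for at least 1 TPM in at least 3 libraries. The 5 genes that passed the filter were above 1 TPM in each of the 9 libraries. The groups did not overlap for the 4 that rose, as for 17.6% of all genes tested in that direction. Ckm, Gamt and Ckb rose by at least 4-fold, as did 0.508% of the genes tested. By size of rise Ckm ranked 11, Gamt 13, Ckb 27 and Gatm 447 among the 10049 genes.

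Muscle lineage markers moved in the same direction. Of 10 such markers, 9 were at 1 TPM or more in every library. Of the 10, 8 rose (80.0%, beside 16.7% of all genes tested) and 2 did not pass. Their summed level was 1256 to 1549 TPM at 0.2 mM and 4133 to 5021 TPM at 0.8 mM. The median log2 fold change of the 10 was 0.82, against 0.06 for all genes tested. The sum is largely Acta1, skeletal actin, at 904 ± 118 and 3671 ± 257 TPM. None of the 10 (0 of 10) rose by as much as Ckb, Gamt or Ckm, and 3 of 10 rose by at least as much as Gatm. In these bulk libraries a change in the share of muscle cells and a change in RNA per muscle cell cannot be told apart, and the part of the marker change in the creatine genes was not tested.

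Markers of other cell types were also looked at. Macrophage markers, 12 of 12 tested, summed to 1877 to 2052 TPM at 0.2 mM and 2071 to 2527 TPM at 0.8 mM. Of the 12, 3 rose (25.0%), Cd68 fell (8.33%) and 8 did not pass, beside 16.7% of all genes tested that rose and 9.81% that fell. Fibroblast markers summed to 2194 to 2662 and 1991 to 2617 TPM, with 4 of 8 that rose. Endothelial markers, of which 4 of 6 were tested and these 4 rose, summed to 11.2 to 12.1 and 20.2 to 29.7 TPM. Smooth muscle and pericyte markers, largely Acta2, summed to 389 to 437 and 1189 to 1418 TPM. Of that list Acta2 and Cspg4 rose, Pdgfrb did not pass, and Myh11, Cnn1 and Rgs5 stayed under the filter at 0.404 TPM or less. Schwann and neural markers summed to 2.72 to 4.37 and 0.583 to 4.89 TPM, with Gfap and Ncan at 0, while Ckb, the brain-type kinase, was at 29.0 TPM or more at 0.8 mM. The part of these cells in the creatine gene changes was not tested.

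**Figure D1:**
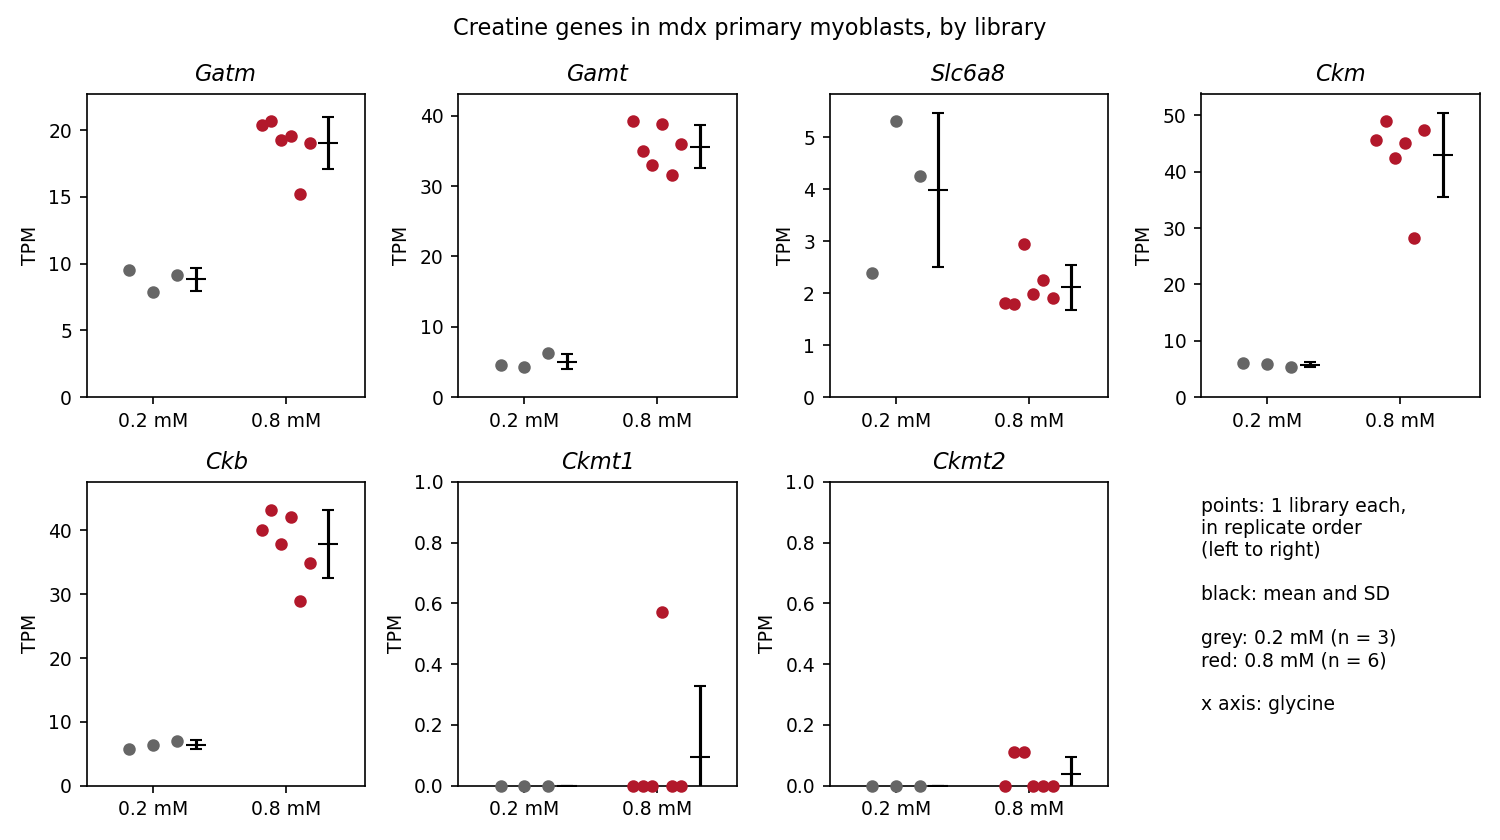
TPM of each of the 7 creatine genes (vertical axes, from 0) by library, with grey points for the 3 libraries at 0.2 mM glycine, red points for the 6 at 0.8 mM and the mean and SD in black. The groups stand apart for Gatm, Gamt, Ckm and Ckb and overlap for Slc6a8, and Ckmt1 and Ckmt2 are at 0 in most libraries.

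The windows around the transcription starts of the 4 genes that rose are shown because these genes moved in the same direction, by unlike amounts. They come from RefSeq on GRCm38.p6 and run from 250 bases before the start to 50 after it, on the strand of the gene. RefSeq places the start of Ckm inside the longer span that GENCODE gives that gene. The windows are chr2:122611228-122611527 (minus strand) for Gatm, chr10:80260963-80261262 (minus strand) for Gamt, chr7:19410844-19411143 (plus strand) for Ckm and chr12:111672289-111672588 (minus strand) for Ckb. Capitals mark matches on either strand to the E-box CANNTG, the element that MyoD-type muscle factors bind, to TATAAA and to the MEF2 motif.
Gatm: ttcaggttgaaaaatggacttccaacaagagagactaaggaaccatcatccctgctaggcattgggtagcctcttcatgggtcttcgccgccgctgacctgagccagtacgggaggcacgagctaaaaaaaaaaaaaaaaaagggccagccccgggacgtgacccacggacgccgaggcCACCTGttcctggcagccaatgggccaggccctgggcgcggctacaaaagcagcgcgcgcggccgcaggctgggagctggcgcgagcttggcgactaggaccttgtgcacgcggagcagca
Gamt: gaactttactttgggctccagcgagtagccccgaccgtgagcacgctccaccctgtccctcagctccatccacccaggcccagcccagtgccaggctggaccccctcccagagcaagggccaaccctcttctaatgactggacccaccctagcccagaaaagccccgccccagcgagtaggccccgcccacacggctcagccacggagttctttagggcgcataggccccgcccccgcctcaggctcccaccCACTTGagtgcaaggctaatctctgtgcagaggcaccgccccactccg
Ckm: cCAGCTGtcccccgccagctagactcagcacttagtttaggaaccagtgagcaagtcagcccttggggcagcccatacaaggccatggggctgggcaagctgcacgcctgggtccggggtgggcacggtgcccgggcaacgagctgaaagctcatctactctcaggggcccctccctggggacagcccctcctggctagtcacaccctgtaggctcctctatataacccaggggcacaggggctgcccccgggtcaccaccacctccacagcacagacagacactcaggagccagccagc
Ckb: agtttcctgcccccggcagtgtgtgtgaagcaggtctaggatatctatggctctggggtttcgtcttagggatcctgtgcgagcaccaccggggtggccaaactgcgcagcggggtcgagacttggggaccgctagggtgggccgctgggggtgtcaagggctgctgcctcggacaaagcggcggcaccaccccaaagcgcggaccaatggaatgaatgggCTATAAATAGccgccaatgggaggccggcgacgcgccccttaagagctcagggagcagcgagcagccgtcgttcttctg
Of the 7 genes, 6 have such a window in the table used, and Slc6a8 is not among them. The 4 windows were rich in G and C, at 60.7% for Gatm, 66.0% for Gamt, 64.7% for Ckm and 63.0% for Ckb, against a median of 52.7% over all 32851 windows of this length. Gatm held 1 E-box, CACCTG, 71 bases before the start, and Ckm held 1, CAGCTG, 249 bases before it. The only E-box of Gamt, CACTTG, lay 3 bases into the transcript, and Ckb held 0. Ckb alone of the 4 held TATAAA, 28 bases before the start, inside a MEF2 match that begins 29 bases before it. Among all windows 72.3% held an E-box, 16.3% CAGCTG, 20.2% CACCTG, 13.6% TATAAA and 1.86% the MEF2 motif, counts in which CAGCTG and CACCTG are also E-boxes. Ckmt1 and Ckmt2, at or close to 0 TPM, held such matches too. The window of Ckmt2 held 4 E-boxes, among them CAGCTG and CACCTG. Of the 2 windows of Ckmt1, 1 held the E-box CAGCTG and a TATAAA match. The motifs therefore do not set the genes that rose apart. All are matches of letters in a short window, and binding was not measured.

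Gamt (ENSMUSG00000020150.13) lies on chromosome 10 from 80258151 to 80261012 on the minus strand of GRCm38. It stood at 4.60, 4.24 and 6.27 TPM in the 3 libraries at 0.2 mM. At 0.8 mM the lowest of 6 libraries held 31.6, the median was 35.5 and the highest held 39.2 TPM. Every library at 0.8 mM was therefore above every library at 0.2 mM by a wide margin. The mean rose from 5.04 ± 1.08 to 35.6 ± 3.05 TPM (SD), 7.07-fold, and limma gave a log2 fold change of 2.61 with an SE of 0.12 and an adjusted p of 8.13e-08. In rank of mean level over all gene IDs, Gamt went from 4322 to 1206.

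Gatm (ENSMUSG00000027199.14) lies on chromosome 2 from 122594467 to 122611303 on the minus strand. Its libraries held 9.50, 7.84 and 9.15 TPM at 0.2 mM. At 0.8 mM they held from 15.2 to 20.7 TPM with a median of 19.4. The groups did not overlap, but the step was smaller than that of Gamt. The mean rose from 8.83 ± 0.873 to 19.03 ± 1.96 TPM (SD), 2.15-fold, and limma gave a log2 fold change of 1.02 with an SE of 0.11 and an adjusted p of 4.65e-05.

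The order of the pair differed between the glycine levels. Gatm, the glycine-using step, was above Gamt in 3 of 3 libraries at 0.2 mM and in 0 of 6 at 0.8 mM. The ratio of Gamt to Gatm TPM was 0.484, 0.540 and 0.685 at 0.2 mM, and 1.69 to 2.08 with a median of 1.91 at 0.8 mM. Its mean was 0.570 ± 0.103 and 1.88 ± 0.152 (SD), and the ranges stood apart. No test is given for ratios between these genes, since the genes were chosen together.

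Slc6a8 (ENSMUSG00000019558.14), the creatine carrier gene, lies on the X chromosome from 73673150 to 73682502 on the plus strand. It was at 2.38, 5.31 and 4.26 TPM at 0.2 mM. At 0.8 mM it was at 1.78 to 2.94 TPM, with a median of 1.94. The groups overlapped, because replicate 1 at 0.2 mM was below the highest library at 0.8 mM. The mean fell from 3.99 ± 1.48 to 2.11 ± 0.438 TPM (SD), 1.89-fold lower, and limma gave a log2 fold change of -0.64 with an SE of 0.20 and an adjusted p of 0.0345. A two-sided exact permutation test over the 9 libraries gave p = 0.0476. The fall missed the threshold in 10 of 23 other settings, among them 6 of the 9 in which a library was left out. The limma adjusted p was 0.166 without 0.2 mM replicate 2 and 0.117 without 0.2 mM replicate 3, and 0.059, 0.0602, 0.0563 and 0.0586 without 0.8 mM replicate 1, 2, 4 and 6.

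The balance of synthesis to uptake RNA moved with these changes. Gatm TPM was 3.98, 1.48 and 2.15 times that of Slc6a8 at 0.2 mM, and 6.56 to 11.6 times, with a median of 9.93, at 0.8 mM. For Gamt the same ratio was 0.798 to 1.93 at 0.2 mM and 11.2 to 21.7 at 0.8 mM. Both ratios were higher in every library at 0.8 mM than in any at 0.2 mM.

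Ckm (ENSMUSG00000030399.2), the muscle kinase gene, lies on chromosome 7 from 19404776 to 19422841 on the plus strand. Its libraries held 6.15, 5.87 and 5.30 TPM at 0.2 mM. At 0.8 mM they held 28.3 to 48.99 TPM, with a median of 45.4. The groups did not overlap, and replicate 5 at 0.8 mM stood well below the other libraries of its group. The mean rose from 5.77 ± 0.433 to 43.0 ± 7.51 TPM (SD), 7.45-fold, and limma gave a log2 fold change of 2.68 with an SE of 0.16 and an adjusted p of 4.9e-07. Its exons overlap those of the antisense gene A930016O22Rik over 451 of 2913 bases, and that gene was at 0 TPM in 8 libraries and at 0.0741 in the other.

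Ckb (ENSMUSG00000001270.9), the brain-type kinase gene, lies on chromosome 12 from 111669361 to 111672338 on the minus strand. It was at 5.74, 6.44 and 7.06 TPM at 0.2 mM. At 0.8 mM it was at 29.0 to 43.3 TPM, with a median of 39.0. The groups did not overlap, and replicate 5 was again the lowest at 0.8 mM. The mean rose from 6.41 ± 0.663 to 37.9 ± 5.28 TPM (SD), 5.91-fold, and limma gave a log2 fold change of 2.38 with an SE of 0.13 and an adjusted p of 2.5e-07. Transcripts of Ckb share runs of at least 50 bases with 3 processed pseudogenes, each listed at 0 TPM in every library. No run of that length was shared between any pair of the 7 genes.

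Ckmt1 (ENSMUSG00000000308.14, chromosome 2 from 121357714 to 121363737) was listed at 0 TPM in 8 of 9 libraries and at 0.572 TPM in 0.8 mM replicate 4. Ckmt2 (ENSMUSG00000021622.3, chromosome 13 from 91853387 to 91876885) was listed at 0 in 7 libraries and at 0.111 TPM in 0.8 mM replicates 2 and 3. The neighbour that overlaps Ckmt1 by 10 bases, Strc, was at 0.0873 TPM or less, and 1700119I11Rik, which overlaps Ckmt2, was at 0. Two-sided exact permutation tests on log2(TPM + 1) gave p = 1.0 for Ckmt1 and p = 0.833 for Ckmt2 (n = 3 and n = 6). The smallest p of the design, 0.0238, was out of reach, with Ckmt1 above 0 in 1 library and Ckmt2 in 2. These tests therefore cannot decide whether either gene differed. With depth unknown, no upper limit can be put on these zeros and no fold is given.

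Summed over the 4 kinase genes, RNA stood at 11.9, 12.3 and 12.4 TPM at 0.2 mM. At 0.8 mM the sum was 57.3 to 92.4 TPM, with a median of 84.03. Nearly all of it was Ckm and Ckb, since the mitochondrial forms together held at most 0.652% in any library. Ckm held 51.7, 47.7 and 42.9% of the sum at 0.2 mM, and 49.4 to 57.5% with a median of 52.9% at 0.8 mM. These shares overlapped between the groups, with means of 47.4 ± 4.44% and 52.9 ± 2.69% (SD). Ckm was above Ckb in 1 of 3 libraries at 0.2 mM and in 5 of 6 at 0.8 mM.

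**Figure D2:**
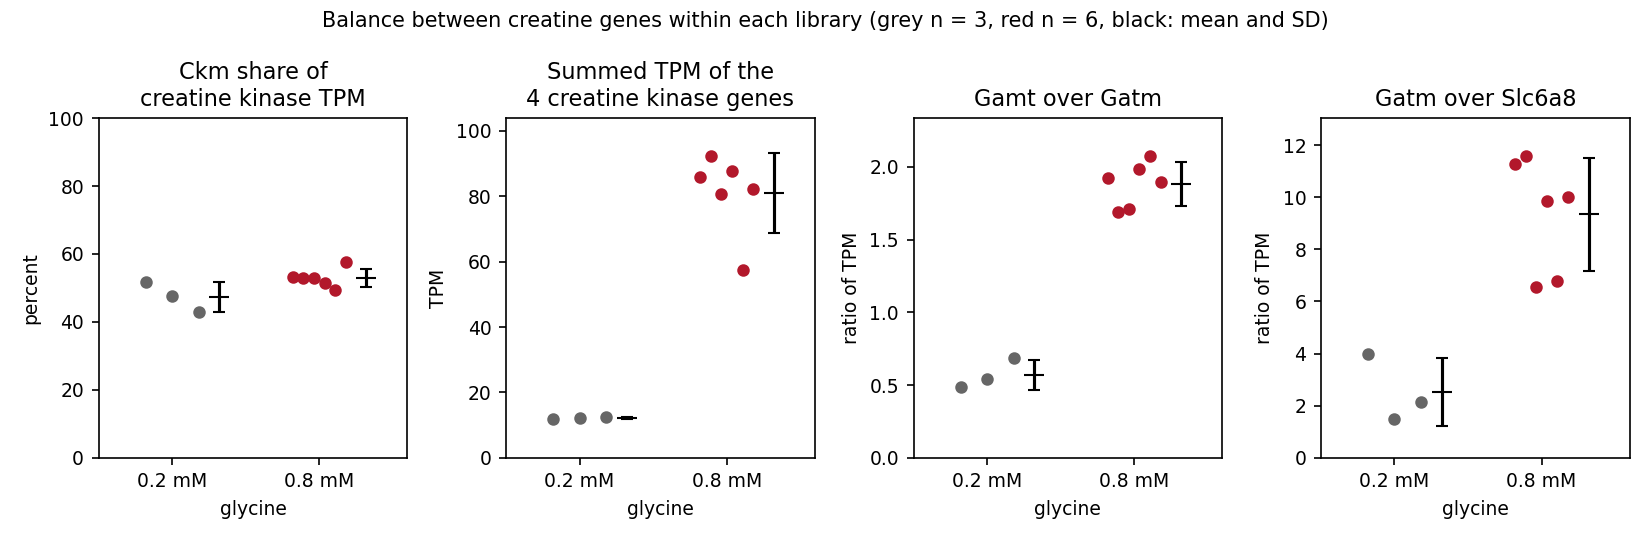
From left to right, the percent of creatine kinase TPM held by Ckm, the summed TPM of the 4 kinase genes, and the TPM ratios Gamt over Gatm and Gatm over Slc6a8, by library, with grey points for the 3 libraries at 0.2 mM glycine, red points for the 6 at 0.8 mM, mean and SD in black and axes from 0. The Ckm share overlaps between the groups at 42.9 to 51.7% and 49.4 to 57.5%, while the other 3 quantities do not overlap.

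By level the genes changed places. At 0.2 mM Gatm was the most abundant, above Ckb, Ckm and Gamt in each of the 3 libraries, and the ranges of Ckm, Ckb and Gamt overlapped. Slc6a8 overlapped with Ckm and with Gamt at that level of glycine, though not with Ckb. At 0.8 mM Ckm, Ckb and Gamt again overlapped, at 28.3 to 48.99, 29.0 to 43.3 and 31.6 to 39.2 TPM. Gatm stood below each of them and above Slc6a8, with no overlap.

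Replicate 5 at 0.8 mM held the lowest value of its group for each of the 4 genes that rose. It stood at 61.9% of the median of the other 5 libraries for Ckm, 72.4% for Ckb, 78.0% for Gatm and 87.9% for Gamt. For Slc6a8 it stood at 118% of that median. Replicate 5 also held the lowest value for 6 of 10 muscle lineage markers, such as Cdh15, M-cadherin, at 75.2% and Des, desmin, at 83.6%. Over the 1683 genes that rose it was lowest for 21.8%, close to the 21.4% of replicate 1. Without it the log2 fold changes were 2.79 for Ckm, 2.46 for Ckb, 1.08 for Gatm and 2.64 for Gamt, and each still passed.

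**Figure D3:**
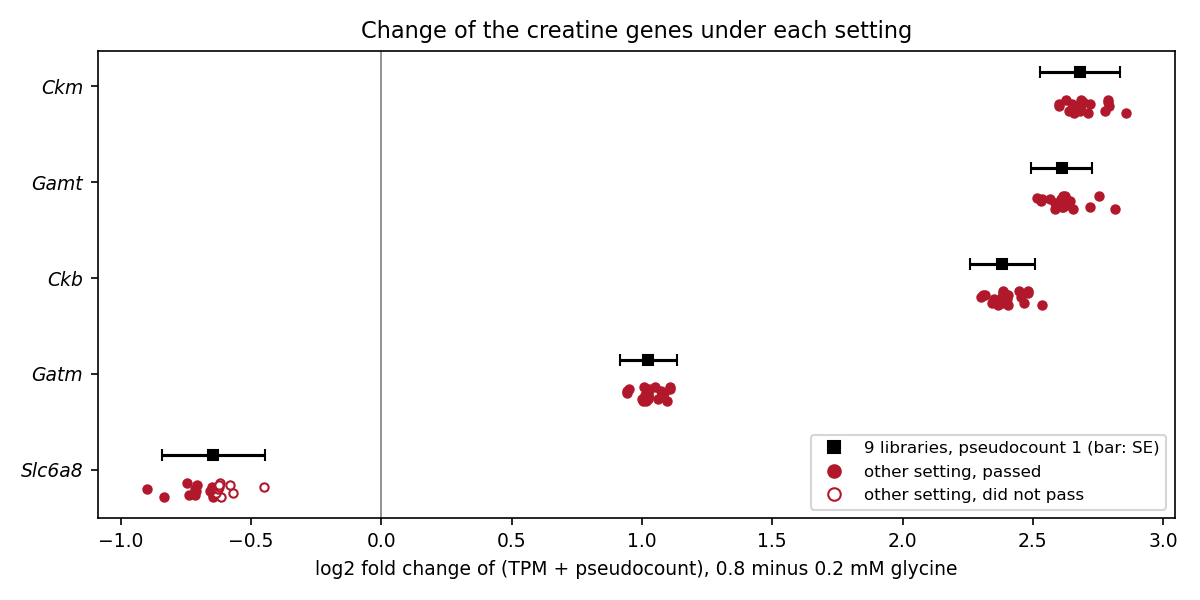
Log2 fold change of (TPM + pseudocount), 0.8 minus 0.2 mM glycine, for the 5 tested creatine genes, with the value from all 9 libraries and its SE in black and each other setting in red, filled where it passed and open where it did not. Ckm, Gamt, Ckb and Gatm passed in each setting shown, and Slc6a8 was below 0 in each but missed the threshold in 10.

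Genes that supply the substrates of creatine synthesis were called about as often as genes at large. Of the 21 listed for arginine supply, ornithine use and the methyl cycle, 14 were tested, of which 3 rose, 2 fell and 9 did not pass (median log2 fold change 0.08, against 0.06 for all genes tested). That is 21.4% higher and 14.3% lower, beside 16.7% and 9.81% of all genes tested. Adk, adenosine kinase, which clears the adenosine released by methyl transfer, rose from 3.39 ± 1.76 to 11.7 ± 3.75 TPM. Oat, which uses the ornithine left by the Gatm reaction, rose from 10.7 ± 1.17 to 18.3 ± 2.44 TPM, and Ass1, which makes the precursor of arginine, from 82.1 ± 5.01 to 125 ± 15.3 TPM. Slc7a1, an arginine carrier, fell from 4.83 ± 0.535 to 1.74 ± 0.565 TPM. The other that fell, Mat2a, which makes S-adenosylmethionine and is named after its values were seen, fell by 0.29 on the log2 scale and lost its call when any 1 of 7 libraries was removed, with a limma adjusted p of 0.164 without 0.2 mM replicate 2. The liver genes Mat1a, Bhmt and Otc were listed at 0 in every library.

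Other methyltransferases that act on small molecules, which share the methyl donor of Gamt, gave no call. Of 7 tested with limma, 0 rose and 0 fell, beside 16.7% and 9.81% of all genes tested. Among the 7, 2 (Coq5 and Pemt) had an unadjusted p under 0.05. Pemt, of phosphatidylcholine synthesis, was at 3.01 ± 0.0695 and 1.87 ± 0.810 TPM (limma adjusted p = 0.0924), and of the alternatives run passed only without 0.8 mM replicate 6 (0.0138). Tpmt, thiopurine methyltransferase, was at 0.980 ± 0.136 and 2.29 ± 1.41 TPM and passed only without 0.8 mM replicate 4 (limma adjusted p = 0.044). The coenzyme Q enzymes Coq3 and Coq5 had log2 fold changes of -0.37 and 0.29, and Coq5 passed only in limma without a trend (adjusted p = 0.0467).

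Of 21 listed carriers, relatives of Slc6a8 and genes of creatine efflux, 3 were high enough to test. Of these 3, 2 rose (66.7%) and 1 fell (33.3%), beside 16.7% and 9.81% of all genes tested. Slc6a6, the taurine carrier, rose from 37.8 ± 1.47 to 57.7 ± 9.48 TPM, and Slc6a12, a betaine and GABA carrier, from 1.02 ± 0.601 to 2.91 ± 0.805 TPM. Slc6a9, a glycine carrier, fell from 5.65 ± 1.101 to 3.53 ± 0.630 TPM. The call was lost for Slc6a12 without 0.2 mM replicate 1 (limma adjusted p = 0.0502), and for Slc6a9 without 0.2 mM replicate 2 (0.0662) or 3 (0.11). Slc16a12, a creatine carrier of another family, was listed at 0 in every library.

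Among 14 tested enzymes of other phosphate transfer, adenylate kinases, AMP deaminases and nucleoside diphosphate kinases, 3 rose, 1 fell and 10 did not pass (median log2 fold change 0.19). These shares, 21.4% and 7.14%, are near the 16.7% and 9.81% of all genes tested. Ak1, the cytosolic adenylate kinase abundant in muscle, rose from 28.2 ± 3.53 to 62.6 ± 5.94 TPM, a smaller log2 step (1.12) than that of the cytosolic creatine kinases. Ak3, of the mitochondrial matrix, rose by 0.48 on the log2 scale, and missed the threshold without 0.2 mM replicate 1 (limma adjusted p = 0.0622) or 2 (0.087). On that scale Ampd2, an AMP deaminase, rose by 0.42 and Nme2, a nucleoside diphosphate kinase, fell by 0.15, and these calls were lost when any 1 of 7 and any 1 of 5 libraries was removed, with limma adjusted p of 0.116 and 0.156 without 0.2 mM replicate 2. Ampd1, the muscle AMP deaminase, stayed under the filter at 0 and 0.0137 ± 0.0335 TPM.

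Carriers that mitochondrial creatine kinases work beside were abundant although Ckmt1 and Ckmt2 were not. Of 10 tested genes of mitochondrial nucleotide and phosphate exchange, 4 rose, 2 fell and 4 did not pass. Among all genes tested, 16.7% rose and 9.81% fell. Slc25a4, the ADP/ATP carrier of muscle and heart, rose from 90.2 ± 2.41 to 161 ± 7.90 TPM. Slc25a5, its widespread relative, rose from 248 ± 19.3 to 344 ± 13.5 TPM, and the phosphate carrier Slc25a3 from 159 ± 5.88 to 219 ± 6.01 TPM. Vdac3, an outer membrane channel, fell from 91.0 ± 4.85 to 64.5 ± 3.36 TPM. Named after its values were seen, Slc25a25, a calcium-dependent ATP-magnesium carrier, fell by 1.08 on the log2 scale. Tspo, an outer membrane protein also named after its values were seen, rose by 0.14, but the call was lost in 6 of the 9 fits without 1 library, with a limma adjusted p of 0.109 without 0.2 mM replicate 2. Median-ratio scaling gave 0.05 for Tspo (limma adjusted p = 0.468), and quantile normalization turned it to -0.13.

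Genes of ATP-using proteins beside which Ckm acts were mostly higher. Of 11 tested ATPase and M-line genes, 10 rose (90.9%, beside 16.7% of all genes tested) and 1, Atp2a2, did not pass (limma adjusted p = 0.0953), with a median log2 fold change of 1.12. Myh3, embryonic myosin heavy chain, rose from 4.99 ± 1.39 to 23.8 ± 1.27 TPM, and Atp2a1, the calcium pump of fast muscle, from 9.54 ± 2.25 to 28.1 ± 3.35 TPM. Myh1 and Myh8, adult and perinatal myosin heavy chains, rose from 1.39 ± 0.204 to 6.70 ± 1.20 and from 0.601 ± 0.246 to 3.50 ± 0.255 TPM. When testing was limited to genes averaging 5 TPM or more, 4 of the list rose.

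Of 17 tested regulators that act on the Ckm gene, 7 rose (41.2%, beside 16.7% of all genes tested) and 10 did not pass. Their median log2 fold change was 0.35, against 0.06 for all genes tested. Without 0.2 mM replicate 2, 4 rose. Myog rose from 247 ± 16.9 to 523 ± 41.2 TPM, Myod1 from 35.7 ± 4.55 to 69.3 ± 5.70 TPM, and Mef2d, a partner of both, from 4.27 ± 0.385 to 6.91 ± 0.535 TPM. Id1, which inhibits MyoD-type factors, also rose, from 5.79 ± 0.126 to 11.7 ± 2.73 TPM. Each of these steps was smaller on the log2 scale (0.94 for Myod1, 1.08 for Myog) than that of Ckm.

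Muscle forms of energy metabolism genes rose in most cases and fell in others. Of 13 tested, 9 rose (69.2%), 2 fell (15.4%) and 2 did not pass (median log2 fold change 0.83). Of all genes tested 16.7% rose and 9.81% fell. Pgam2, muscle phosphoglycerate mutase, rose from 6.10 ± 1.55 to 47.2 ± 5.08 TPM, Eno3, muscle enolase, from 52.4 ± 3.94 to 187 ± 16.4 TPM, and Mb, myoglobin, from 4.10 ± 0.0918 to 27.8 ± 3.31 TPM. Cox6a2, the muscle form of a cytochrome c oxidase subunit, fell from 139 ± 3.55 to 48.2 ± 4.21 TPM. Fabp3, a fatty acid binding protein of muscle and heart that is named after its values were seen, fell from 62.2 ± 5.64 to 15.6 ± 2.41 TPM.

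**Figure D4:**
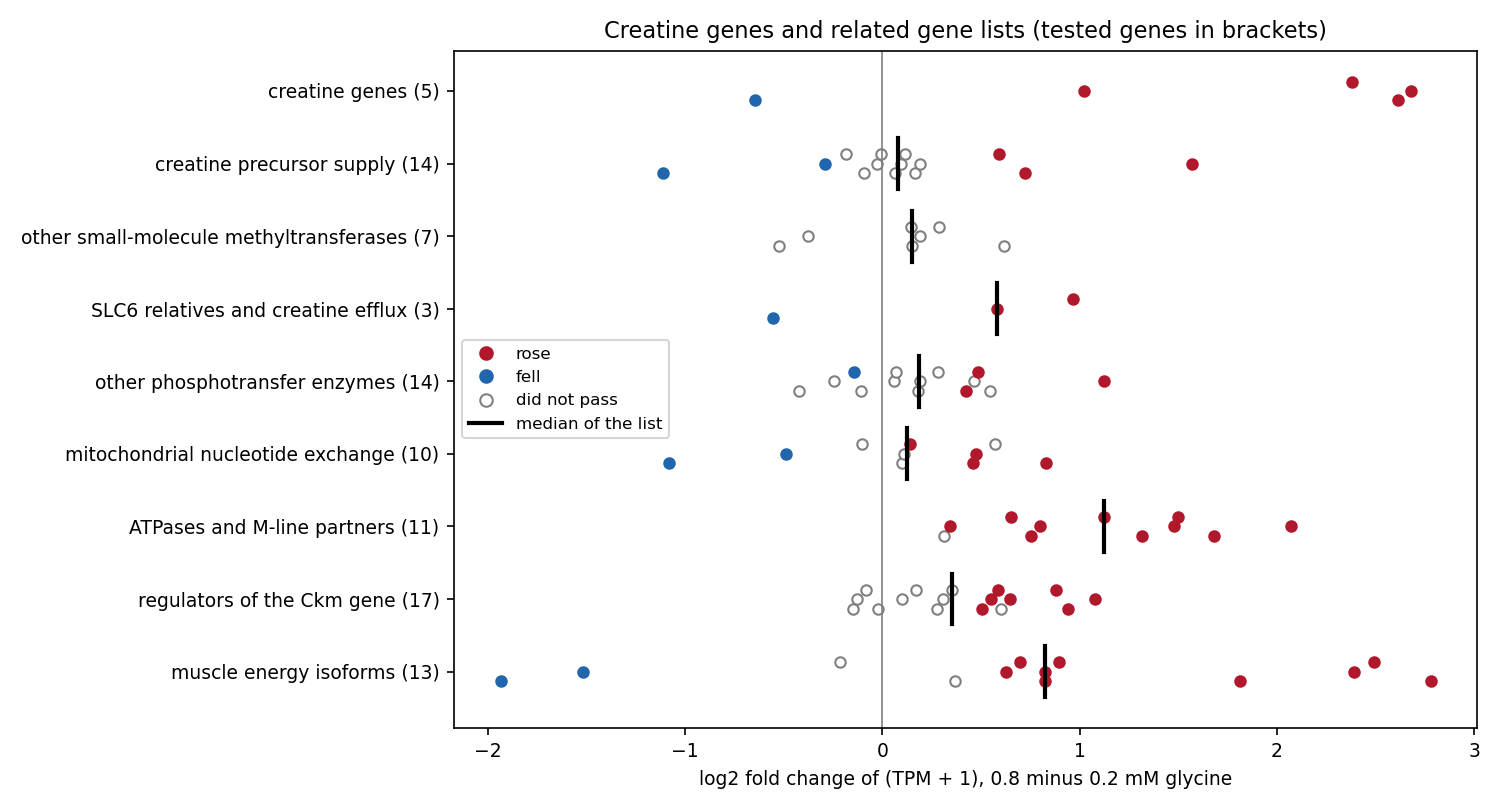
Log2 fold change of (TPM + 1), 0.8 minus 0.2 mM glycine, for each tested gene of the creatine set and of 8 related lists (rows, number tested in brackets), in red where it rose, blue where it fell and open where it did not pass, with a black bar at each list's median. Ckm, Gamt and Ckb lie between 2.38 and 2.68, beyond every gene of the substrate, methyltransferase, carrier, phosphate transfer and mitochondrial lists. Some of the muscle energy genes lie as far out, such as Pgam2 at 2.78 and Mb at 2.49.

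The genes with the library profile most like each creatine gene were found by the root mean square difference between log2(TPM + 1) values centred on each gene's own mean over the 9 libraries, among 4246 genes of at least 5 TPM on average. For Gamt they were Actc1, cardiac actin (0.130), Tnnc2, fast troponin C (0.149), and Mb (0.171). For Ckm they were Actc1 (0.175), the tubulin gene Tuba1a (0.190) and Mb (0.212), and for Ckb Actc1 (0.119), the tubulin gene Tubb6 (0.119) and Tuba1a (0.141). Gatm was nearest to Pdia6, a disulfide isomerase of the endoplasmic reticulum (0.0636), Hspb2, a small heat shock protein of muscle (0.0677), and Bin1, a membrane-shaping protein (0.0812). Slc6a8 was nearest to Tfe3 (0.182), Nfe2l2 (0.188), both transcription factor genes, and Gyg, glycogenin (0.204). Between the creatine genes themselves the difference was 0.180 for Gamt and Ckb, 0.208 for Ckm and Ckb and 0.231 for Gamt and Ckm, and 0.651 or more for Gatm with any of the others. This measure is a description over libraries that fall into 2 groups.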

How the data were processed

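RNA of 9 libraries was analysed, from 3 samples at 0.2 mM and 6 at 0.8 mM glycine. The authors deposited 1 table of TPM per gene. Per the submitters' processing notes the tools were HISAT2 2.0.5, StringTie 1.3.3 and DESeq2, and the build was mm10. The sources used here do not give settings, annotation or whether counting used strand. Depth is unknown, so precision comes from the spread between libraries.

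Genes with at least 1 TPM in at least 3 libraries (10049) entered a two-sided test on log2(TPM + 1) over the 9 libraries, with limma 3.58.1 (R 4.3.3) and its mean-variance trend. Fold changes on that scale understate the change of low genes. P-values were Benjamini-Hochberg adjusted over all genes tested, with a threshold of 0.05. The 2 genes under the filter had exact permutation tests over the 84 splits. Positions came from GENCODE M21 on GRCm38, which matched 53620 of the IDs without their version. No pair of libraries was identical.

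The creatine genes and the 8 gene lists and 6 marker lists were chosen with earlier results of these data known. The text names the creatine genes, up to 4 genes of smallest p per list, genes with overlapping exons, and the 3 most like in profile to each tested creatine gene by root mean square difference. Genes at 0, marker genes, Atp2a2 and Ampd1 lie outside that rule and were chosen after their values were seen, as were those so described. The fit was tested on simulated data. Alternatives were pseudocounts of 0.1 and 0.5, other filters, scalings and variance models, a 1.5-fold threshold, each library left out, and the library number as a block. Figures used matplotlib 3.10.9 in Python 3.11.15.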

Additional observations from a re-analysis of the deposited data

Results flagged for a closer look

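Within the 6 libraries at 0.8 mM glycine, 53 genes that the text names were examined for a library whose gap to the next was large against the range of the group, which chance gives in about 1 in 20 groups. It was found for 5 genes. Ckm stood at 28.31 TPM in replicate 5, with the next library at 42.5 TPM. Gatm stood at 15.24 TPM in replicate 5, with the next at 19.04 TPM, and Actc1 at 1375 TPM in the same library, with the next at 1611 TPM. Ckmt1 was at 0.572 TPM in replicate 4 and at 0 in the other 5 libraries. Any gene above 0 in only 1 library meets this rule, so the rate of 1 in 20 does not apply to Ckmt1. With 53 genes examined, some of the other gaps may be due to chance. Tnnc2 was highest in replicate 3, at 245.1 TPM, with the next at 224.3 TPM.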

How the results depend on the processing

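Gatm, Gamt, Ckm and Ckb kept their direction and passed in all 96 results from the alternatives run, with log2 fold changes of 0.94 to 1.11, 2.52 to 2.81, 2.60 to 2.86 and 2.30 to 2.54. For Slc6a8 the log2 fold change missed the threshold with no filter (-0.64, limma adjusted p = 0.0826), with library weights (-0.57, 0.063), and with libraries 1 to 3 of each group, at -0.62 with the replicate block (0.13) and -0.62 without it (0.147). It ranged from -0.90 to -0.45 with each library left out, and the cause was not tested. Of the creatine genes 0 fell in those 4 settings and with a mean of at least 5 TPM, a filter that leaves Slc6a8 untested, and 0 to 1 with each library left out. With the 1.5-fold threshold 1121 genes rose and 515 fell, against 1683 and 986. The replicate block, on 6 libraries, gave 1157 that rose and 625 that fell, against 1318 and 748 for the same libraries without it. Libraries share only a number: deviations from the group mean correlated at 0.0383, 0.00233 and 0.107 for equal numbers and at -0.0997 to 0.0611 for unequal ones, and not every library correlated best with its own number. The value of Tspo was reversed by quantile normalization (-0.13). Ckm held 45.3 to 49.7% of kinase RNA at 0.2 mM and 51.98 to 53.6% at 0.8 mM with each library left out. Unknown depth limits what can be said of Ckmt1 and Ckmt2.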
